A study of Mus musculus with 7 samples.

Results

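The integrins and the genes of the focal adhesion were examined as 34 genes read by 66 probe sets, out of 12394 genes named by symbol and 22690 probe sets on each array. They were taken by gene symbol, as all integrin alpha and beta subunits in the array annotation and a fixed set of genes of the adhesion complex. The set was chosen with earlier results of these data known. The integrins made up 40 probe sets of 21 genes, with 14 alpha and 7 beta subunits. The other 26 probe sets came from 13 genes that link integrins to actin, act as scaffolds or belong to the complex of integrin-linked kinase. Another 6 genes of the rule, Itga1, Itga10, Itga11, Itgb8, Ptk2 and Tln2, had no probe set in the annotation used here.

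RNA came from whole FVB mouse embryos at E10.5, with 1 embryo on each of 7 Affymetrix 430A 2.0 arrays. The 2 control embryos came from an untreated dam, whereas 3 exposed embryos without a neural tube defect (NTD) and 2 exposed embryos with NTD came from a dam with streptozotocin-induced diabetes and a blood glucose above 250 mg/dl. Streptozotocin destroys the insulin-producing cells of the dam, and dams were 7 to 9 weeks old when diabetes was induced. All embryos were FVB, and no transgene or deleted gene was involved. Since each group had 1 dam, diabetes and litter cannot be told apart, and every p-value measures the spread between littermates only. In whole-embryo RNA, fewer cells of a type and less RNA per cell cannot be told apart either.

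Integrins are receptors of the cell surface made of an alpha and a beta subunit. Outside the cell they bind fibronectin, laminin, collagen and other proteins of the extracellular matrix, and inside it they recruit talin, vinculin, paxillin and kinases to focal adhesions, where the matrix is joined to the actin cytoskeleton. In the embryo at this stage they serve the migration of neural crest and mesoderm, the growth of blood vessels and the attachment of epithelia to their basement membranes.

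The deposited values are MAS5 signals, linear intensities that the authors scaled on each array. The filter kept a probe set whose signal reached the 40th percentile of its array (131 to 146) on 2 of the 7 arrays or more. This held for 42 probe sets of 23 of the genes and for 14554 probe sets in all. Of the 42, 33 reached the percentile on all 7 arrays. The dimmer tested probe set of Itgav and the dimmest of Pxn passed through the controls only and that of Itga2 through exposed embryos only, so that they had to differ to be tested, and counts over the 42 are descriptions. Fold changes below are log2 differences, exposed minus control, with the standard error (SE) of the limma fit on log2 signals. Calls were made where the p, adjusted by Benjamini-Hochberg, was under 0.05. With 2 against 5 embryos an exact permutation test (two-sided) has a smallest p of 0.048, and so few arrays limit the precision. Where a gene has several probe sets they are named here by their brightness, and their identifiers stand in the plots. The median signal of the arrays was 206 to 218, and their ratio of 3′ to 5′ signal was 0.788 to 0.915 for Gapdh and 1.05 to 1.17 for beta actin, with the groups overlapping for both.

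The signal of Git1, a scaffold that joins paxillin to activators of small GTPases and helps adhesions turn over, was higher in exposed embryos, and Git1 was the only gene of the group called. Integrin subunits and linkers differed in both directions without passing the adjusted test. Probe sets of Itga5, Itga2 and Itga3 gave higher signals in all exposed embryos, and some probe sets of Vcl, Pxn, Itgav, Lims1 and Itga4 gave lower ones. For Vcl, Pxn and Itgav the other tested probe sets of the same gene did not show the lower signal.

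Of the 42 tested probe sets 1 was called higher, against 16 of 14554 in all (0.110%), and 0 were called lower, against 9 in all (0.0618%). At an unadjusted limma p under 0.05, 8 of the 42 were higher (19.0%) against 7.63% of all tested probe sets, and 7 were lower (16.7%) against 8.52%. All 5 exposed embryos were above both controls for 12 of the 42 (28.6%), where 11.4% of all probe sets did this, and below both for 9 (21.4%), where 13.4% did. These shares were above the background in both directions, as a description, and the called count rests on 1 probe set. The 42 include probe sets of Vcl, Pxn and Itgav from the list that the study chose from these same arrays. The median log2 difference of the 42 was 0.16, against 0.0003 for all tested probe sets, and the median of the absolute differences was 0.24 against 0.19. By embryo the median was 0.13, 0.14 and 0.16 in those without NTD (numbers 1 to 3) and 0.06 and 0.13 in those with NTD (numbers 1 and 2). The median over the exposed embryos was 0.03 when control 2 was left out and to 0.04 without the filter on low signals.

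**Figure D1:**
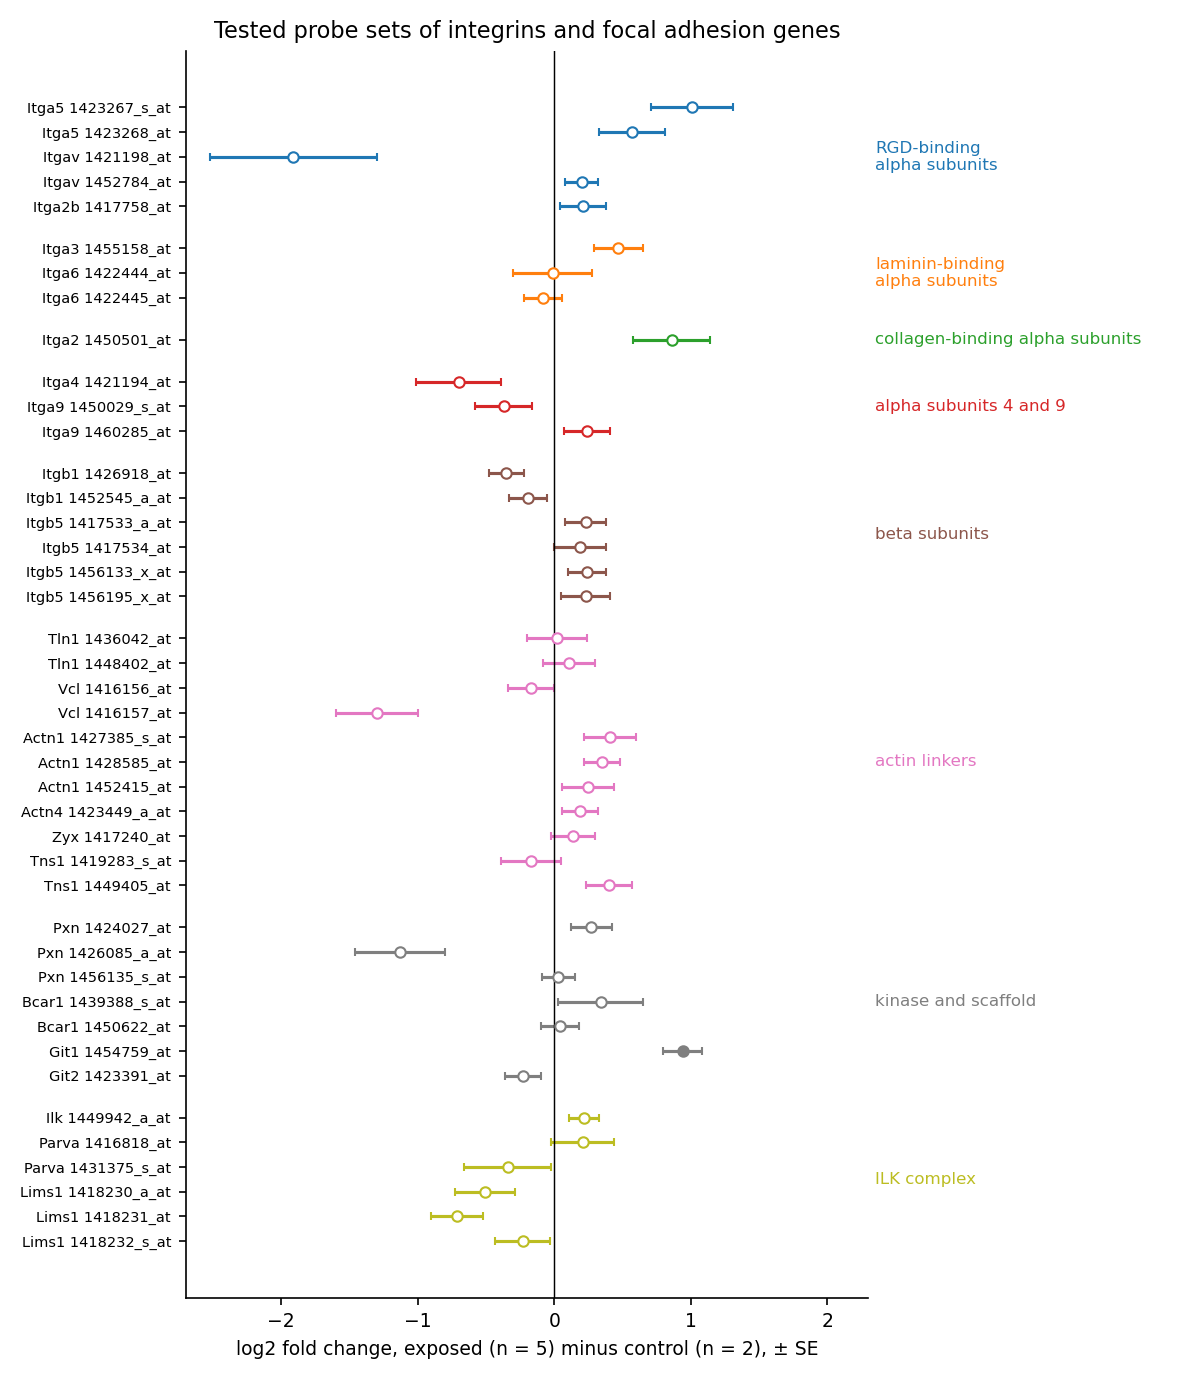
Log2 fold change of the 42 tested probe sets, exposed (5 embryos) minus control (2 embryos), on the x axis, with bars for ± 1 SE of the limma fit and with probe sets grouped by role on the y axis. Filled points were called at an adjusted p under 0.05: Git1 was, at 0.94, and the lowest value, -1.91, belongs to a probe set of Itgav that was not called.

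The transcription start regions of the genes with the smallest p-values in each direction, Git1 and Vcl, are shown here as the places where motifs of 2 regulators were looked for. RefSeq promoter windows (build GRCm38.p6, 250 bases before to 50 after a start) were matched by symbol for 25 of the 34 genes, with 33 windows. Below are 30 bases of each, in capitals the hypoxia-inducible factor (HIF) core ACGTG, here on the opposite strand, in Git1 and the CArG box, the motif of serum response factor, in Vcl. The Git1 stretch lies at chr11:77493038-77493067 and the Vcl stretch at chr14:20929161-20929190, both on the plus strand and upstream of the first start listed.
Git1: cCACGTccgtctctcggtttttgggccgag
Vcl: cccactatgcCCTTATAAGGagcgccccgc
Counted from the start, the motif spans -249 to -245 in Git1 and -227 to -218 in Vcl. The Vcl window also held 1 HIF core, the other Git1 window held 0, and neither Git1 window held a CArG box. On either strand, a CArG box occurred in 1.63% of all 32851 windows and in 2 of the 33 windows (6.06%), those of Vcl and Itgb6. The HIF core occurred in 19.6% of all windows and in 9 of the 33 (27.3%), and the GC box GGGCGG in 35.7% and in 22 of the 33 (66.7%). None of these motifs contains another. A match is a description of the letters and not a bound site.

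Among the scaffolds, Git1 had signals of 264 and 234 in controls 1 and 2. In the exposed embryos they were 453, 521 and 444 (numbers 1 to 3 without NTD) and 452 and 525 (numbers 1 and 2 with NTD). The lowest exposed embryo was above the higher control, and embryos with and without NTD overlapped. The mean rose from 249 ± 21.1 (SD, n = 2) to 479 ± 40.3 (SD, n = 5), a 1.92-fold ratio, with a log2 difference of 0.94 ± 0.14 (SE) and a limma adjusted p = 0.0329. It ranked 18th by p among all tested probe sets. The call was kept when exposed embryo 1 of either kind was left out. It was lost without control 1 (adjusted p = 0.221), control 2 (0.346), exposed embryo 2 with NTD (0.0688), or exposed embryo 2 (0.0678) or 3 (0.0700) without NTD, while the log2 difference remained between 0.85 and 1.03 in these 5 fits. Its paralog Git2 had lower signals in exposed embryos that did not pass the test, with 814 and 927 in controls and 638 to 791 in exposed embryos (log2 difference -0.23 ± 0.13, adjusted p = 0.421), and a second Git2 probe set was not tested.

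Paxillin (Pxn), the adaptor to which GIT proteins and vinculin bind, gave different values by probe set. With the dimmest, which is on the list that the study chose from these same arrays, signals were 179 and 222 in controls, 55.0, 113 and 107 in exposed embryos without NTD, and 100.3 and 93.1 in those with NTD. Every exposed embryo was below both controls, and the log2 difference was -1.13 ± 0.33 (adjusted p = 0.149). The middle probe set lay the other way, with 228 and 282 in controls and 293, 293, 293, 329 and 328 in the exposed embryos in the same order, a log2 difference of 0.27 ± 0.15 (adjusted p = 0.400). The brightest had 1362 and 1331 in controls, 1221, 1507 and 1315 without NTD, and 1369.5 and 1474 with NTD, so that the groups overlapped (0.03 ± 0.12, adjusted p = 0.935). Bcar1 (p130Cas), a docking protein phosphorylated at adhesions, overlapped between the groups with both probe sets, at log2 differences of 0.34 and 0.04.

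Vinculin (Vcl), which binds talin and actin and strengthens adhesions under load, also depended on the probe set. With the dimmer of its probe sets, another on the study's list, signals were 284 and 313 in controls, 123, 77.0 and 178 in exposed embryos without NTD, and 143 and 110.1 in those with NTD. No exposed embryo reached the lower control. The mean was 299 ± 20.6 (SD, n = 2) against 126 ± 37.6 (SD, n = 5), 2.37-fold higher in controls, with a log2 difference of -1.30 ± 0.30 and an adjusted p = 0.0974, and it passed with array quality weights (adjusted p = 0.0253). The brighter one had 1805 and 1697 in controls, 1167, 1886 and 1560.3 without NTD, and 1688 and 1579 with NTD, which overlap (-0.17 ± 0.17, adjusted p = 0.659). The paper also reports lower Vcl in exposed embryos by quantitative RT-PCR. That assay used embryos of other pregnancies and read a stretch of the transcript away from the array probe.

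Talin 1 (Tln1), which binds the tails of beta subunits and switches integrins on, did not separate the groups. Its signals with the brighter probe set were 630 and 475 in controls, 503, 473 and 708 in exposed embryos without NTD, and 614 and 691 with NTD, a log2 difference of 0.11 ± 0.19 (adjusted p = 0.818). With the dimmer one they were 299 and 313, then 428, 219 and 327, then 301 and 308 (0.02 ± 0.22, adjusted p = 0.981). Both probe sets overlapped between controls and exposed embryos, and the sign of each changed under some alternatives.

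None of the other actin linkers was called. Alpha-actinin 1 (Actn1), which crosslinks actin filaments, had 1822 and 2051 in controls, 2699, 2321 and 2781 without NTD, and 2409 and 2198 with NTD with its brightest probe set (0.35 ± 0.13, adjusted p = 0.215). With its dimmest it had 259.6 and 204 in controls, 264, 338 and 369.8 without NTD, and 306 and 266 with NTD (0.41 ± 0.19, adjusted p = 0.307, and 0.24 without control 2). In both, every exposed embryo was above both controls, and the remaining Actn1 probe set overlapped at 0.25. Actn4 also separated, by a small step, with 2274 and 2283 in controls and 2315 to 2975 in exposed embryos (0.19 ± 0.13, adjusted p = 0.497). Tensin 1 (Tns1), a linker of fibrillar adhesions, had 189.9 and 183 in controls, 259, 235 and 286 without NTD, and 231 and 227 with NTD with its dimmer probe set (0.40 ± 0.17, adjusted p = 0.271). Its other probe set was at -0.17 with overlapping groups. Zyxin (Zyx), found at mature adhesions and stress fibres, overlapped at 0.14. Of the 11 tested probe sets of the 6 actin linkers, 8 had a positive difference, and the median was 0.14. All exposed embryos were above both controls in 4 and below both in 1, where 11.4% and 13.4% of all tested probe sets were.

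**Figure D2:**
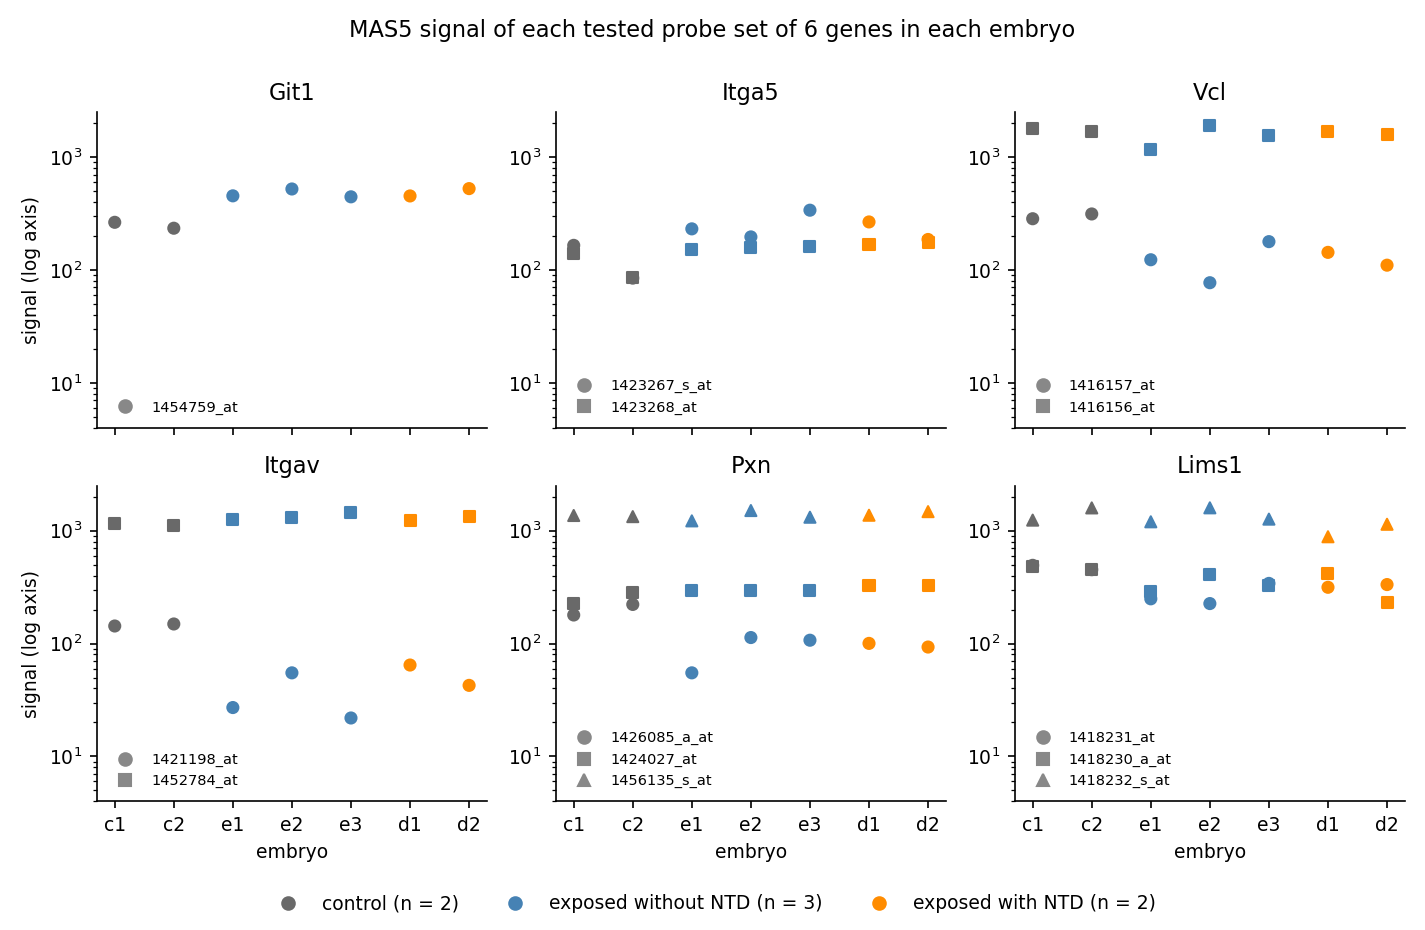
MAS5 signal on a log axis (y) in controls 1 and 2 (c1, c2), exposed embryos 1 to 3 without NTD (e1 to e3) and exposed embryos 1 and 2 with NTD (d1, d2), for every tested probe set of 6 genes, with a symbol for each probe set. Git1 is higher in all 5 exposed embryos, while for Vcl, Itgav and Pxn the dimmest probe set is lower in them. The brightest one overlaps with the controls for Vcl and Pxn, and for Itgav it lies slightly above both controls in all 5.

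In the complex of integrin-linked kinase, the kinase-like core and its LIM-domain partner had opposite signs. Ilk, the core, had 1327 and 1258 in controls, 1515, 1554 and 1506 in exposed embryos without NTD, and 1414 and 1556 with NTD. All exposed embryos were above both controls by a small step (0.22 ± 0.11, adjusted p = 0.350). Lims1 (PINCH1), which binds Ilk and is needed for its stability, had lower signals with a probe set at 493 and 451 in controls, 249, 226 and 341 without NTD, and 315 and 333 with NTD (-0.71 ± 0.19, adjusted p = 0.124). It passed with array quality weights (adjusted p = 0.0472). A similarly bright probe set had 479 and 451 in controls, 291, 407 and 328 without NTD, and 417 and 229 with NTD, again below both controls (-0.51 ± 0.22, adjusted p = 0.299). The brightest had 1239.5 and 1590.5, then 1198, 1593 and 1265, then 883 and 1139, and overlapped (-0.23 ± 0.20, adjusted p = 0.599). All 3 Lims1 probe sets had the same sign. Alpha-parvin (Parva), which ties the complex to actin, had 1 probe set of each sign, 0.21 and -0.34, both with overlapping groups.

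Of the integrin alpha subunits that read the RGD sequence, Itga5, the fibronectin receptor subunit that mouse embryos need for mesoderm, vessels and neural tube, had higher signals with both of its probe sets. With the brighter the signals were 165 and 84.6 in controls, 231, 196 and 338 in exposed embryos without NTD, and 266 and 186 with NTD. Each exposed embryo was above both controls, although control 1 lay closer to the lowest exposed embryo than to control 2 (1.01 ± 0.30, adjusted p = 0.153). Without control 1 the log2 difference was 1.49 and without control 2 it was 0.53. With the dimmer they were 139.8 and 85.8, then 150.4, 158 and 162, then 167 and 175 (0.57 ± 0.24, adjusted p = 0.284), and the difference was 0.92 without control 1 and 0.22 without control 2. These are dim probe sets, and control 2 was below the 40th percentile with both.

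The alpha subunit Itgav pairs with several beta subunits to bind vitronectin and latent TGF-beta. Its dimmer tested probe set, also on the study's list, had 143 and 149 in controls, 27.1, 55.0 and 21.9 without NTD, and 64.5 and 42.6 with NTD. The difference of -1.91 ± 0.61 was the lowest of the 42 (adjusted p = 0.176). Adding 50 to every signal before the log made it -1.11, and all exposed signals were below the array's 40th percentile. The much brighter one pointed the other way, with 1166 and 1110.3 in controls, 1255, 1299.9 and 1461 without NTD, and 1220.1 and 1334 with NTD (0.20 ± 0.12, adjusted p = 0.422). Another probe set overlapped between the groups and was not tested. Itga2b, the subunit of platelets and megakaryocytes, overlapped at 0.21.

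Of the laminin receptors, Itga3, a subunit of epithelia and glomeruli, had 313 and 331 in controls, 517, 336 and 470.4 without NTD, and 439 and 498 with NTD (0.47 ± 0.18, adjusted p = 0.229). All exposed embryos were above both controls, exposed embryo 2 without NTD only just. Other Itga3 probe sets, with signals of 12.2 to 37.2 and 36.2 to 112, overlapped between the groups and were not tested. Itga6 lay at -0.01 and -0.08 with overlapping groups. Itga2, a collagen receptor subunit, had 60.7 and 92.6 in controls, 160.4, 121 and 143 without NTD, and 135 and 123 with NTD (0.86 ± 0.28, adjusted p = 0.183, and 0.55 without control 1). Both control signals were below the 40th percentile here, and only 2 exposed embryos reached it.

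The alpha subunits 4 and 9 bind VCAM-1, tenascin and a spliced segment of fibronectin. Itga4, also a marker of migrating neural crest and blood progenitors, had 207 and 176 in controls, 125, 134 and 78.4 without NTD, and 101 and 172 with NTD (-0.70 ± 0.31, adjusted p = 0.300). The brighter of its untested probe sets was lower too, with 92.1 and 108 in controls and 14.8, 16.1, 49.5, 18.7 and 19.3 in exposed embryos in the same order. In both, no exposed embryo reached a control, although exposed embryo 2 with NTD came close to control 2 in the first. The second was below the 40th percentile on every array. The remaining Itga4 probe set, also untested, had signals of 1.04 to 27.5 and overlapped between the groups. Itga9 gave -0.37 with 1 probe set and 0.24 with the other.

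The beta subunits carried small differences. Itgb1, the partner of most alpha subunits above and needed by nearly every cell, had 1172 and 1087 in controls, 1015, 789 and 883 without NTD, and 855 and 906 with NTD with the dimmer tested probe set. All exposed embryos were below both controls (-0.35 ± 0.13, adjusted p = 0.234). With the brighter one the signals were 1514 and 1608, then 1481, 1122 and 1562, then 1335 and 1368, which overlap (-0.19 ± 0.14, adjusted p = 0.534). Itgb5, a partner of Itgav, had positive differences with all 4 probe sets, from 0.19 to 0.24, each with overlapping groups.

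Across genes, 14 had more than 1 tested probe set. For 5 of them, Itga9, Itgav, Parva, Pxn and Tns1, the probe sets had differences of both signs, and Itgav and Pxn each had 1 probe set above both controls and 1 below. The annotation does not place probe sets along the transcripts, and whether they read different transcript forms was not tested. Probe sets ending in _s_at can match several transcripts and those ending in _x_at can bind unrelated ones.

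A further 24 probe sets were not tested, with signals of 1.04 to 135. They left 11 genes with no tested probe set: Itga7, Itga8, Itgae, Itgal, Itgam, Itgax, Itgb2, Itgb3, Itgb4, Itgb6 and Itgb7. These include the subunits of muscle (Itga7) and of leukocytes (Itgal, Itgam, Itgax and Itgb2), and the epithelial Itgb4 and Itgb6. For Itgal and Itgb7 all exposed embryos were above both controls, and for Itga8 and the brighter untested Itga4 probe set below, with no test. Exposed embryo 1 without NTD had the highest signal for Itgae, Itgb4 and Itgb7, at 71.1, 68.9 and 127.

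**Figure D3:**
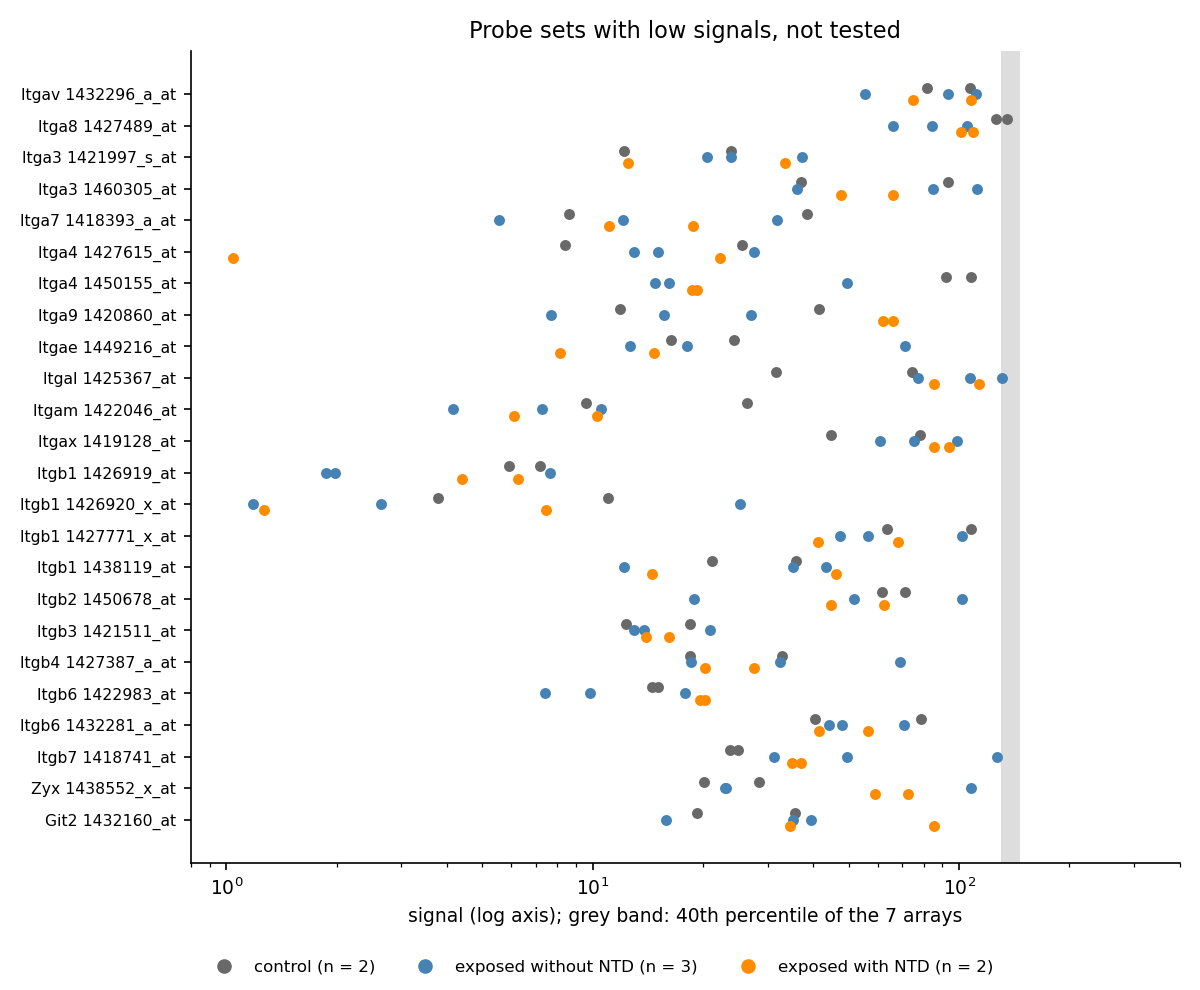
Signals on a log axis (x) of the 24 probe sets that were not tested (y), with a point for each embryo coloured by group and the 40th percentile of the 7 arrays as a grey band. Most groups overlap, with the brighter untested Itga4 probe set lower and Itgb7 higher in exposed embryos.

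Summed marker signals of some other tissues differed between the groups or in single embryos. As background for the counts here, 11.4% of all tested probe sets lay above both controls and 13.4% below. Among yolk sac endoderm and liver genes (9 of 10 on the array), the summed signal was 27784 in exposed embryo 1 without NTD, 3091 and 2952 in controls and 1133 to 2215 in the other exposed embryos. Among embryonic blood genes it was 51903 and 54146 in controls and 64049 to 83488 in exposed embryos, with 5 of 6 genes above both controls and Hba-a1 below the percentile on every array. Neural genes summed to 9874 and 9851 in controls and 6988 to 8549 in exposed embryos, with 3 of 6 below both controls. Heart and smooth muscle genes summed to 12045 and 12205 in controls and 12475 to 15487 in exposed embryos (8 genes, 2 above both controls). Somite genes summed to 1803 and 1771 against 1985 to 2353 (6 genes, 1 above and 1 below, with Myf5 below the percentile on every array). The somite gene above was Meox1 (log2 difference 0.72), whereas Meox2, Tcf15, Myog and Pax1 lay at -0.26, -0.04, -0.26 and -0.13. No marker was called by limma. Their part in the differences above was not tested. Summed signals overlapped between controls and exposed embryos for endothelium (8 genes, 3205 and 3363 against 2960.3 to 3794), leukocytes (10 genes, 1935 and 2129 against 1768 to 2085) and platelets (7 of 10 genes, 1761 and 2022 against 1559.9 to 2199). The endothelium and platelet lists each had 1 tested gene above both controls and 1 below. The leukocyte marker Ptprc and the platelet marker Vwf were below the percentile on every array.

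Exposed embryos with and without NTD could not be separated in these genes. None of the 42 was called in the limma fit of 3 groups (0 of 14554 in all, 0%), and the smallest adjusted p was 0.999. At an unadjusted p under 0.05 none was higher with NTD (1.64% of all tested probe sets) and 1 was lower (2.38%, against 1.38% of all). This was the brightest probe set of Lims1, with 883 and 1139 with NTD against 1198, 1593 and 1265 without, a log2 difference of -0.42 ± 0.19. The brighter probe set of Parva had 319 and 337 with NTD against 469.9, 437 and 411 without, with 252 and 455 in controls (-0.42 ± 0.23). The brighter tested probe set of Itga9 had 378 and 416 against 479.8, 565 and 428, with 376 and 382 in controls (-0.30 ± 0.17). These 3 were named for their small p, and for 2 against 3 embryos the smallest exact permutation p is 0.1.

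Other genes of integrin adhesion that were not members came from 4 lists of 67 genes in all. They had 100 tested probe sets of 54 genes, of which none was called. At an unadjusted limma p under 0.05, 10 were higher and 11 lower, close to the 7.63% and 8.52% of all tested probe sets. In what follows, the background for probe sets with all exposed embryos above both controls is 11.4% of all tested probe sets, and 13.4% for those below.

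Signalling genes downstream of integrins had a median of -0.14, with 15 of 45 probe sets below both controls and 0 above. The 15 include the dimmest probe set of Rock1, with 142 in both controls and 67.9 to 132 in exposed embryos. It was tested through the controls alone, so that it had to be lower. At an unadjusted limma p under 0.05, 9 of the 45 were lower, against 8.52% of all tested probe sets. Only 1, Csk, was higher, against 7.63% of all, and its exposed and control signals overlapped. One probe set of the adaptor Crk, which binds phosphorylated paxillin and p130Cas, had the smallest p of these, with 677 and 681 in controls, 363, 375 and 378 without NTD, and 479 and 311 with NTD (-0.85 ± 0.17, adjusted p = 0.0635). The other tested Crk probe sets lay at -0.40, at -0.14 for the brightest and at 0.23 for the dimmest. Such disagreement recurred in other signalling genes. The brightest probe set of Crkl, a relative of Crk, lay at -0.07, with the other Crkl probe sets at -0.75 and -0.65. For the GTPases Rhoa and Rac1 the brighter probe set lay at 0.00 and -0.00 and the dimmer at -0.39 and -0.32. The GTPase Cdc42 differed from these, as all its tested probe sets lay between -0.32 and -0.14. Its brightest was at -0.32, with all exposed embryos below both controls. The 4 probe sets of the phosphatase Ptpn12 had the same sign, with -0.62 for the dimmest and -0.13 to -0.21 for the others.

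Ligands had a median of 0.10, with 4 of 21 probe sets above and 3 below both controls. The laminin chain Lama5 was above with both tested probe sets (0.61 and 0.70), and Lamc1 lay at 0.43. For the collagen Col1a1 the dimmer probe set was above (1.05) and the brighter overlapped (0.18). For nidogen 1 (Nid1), which joins laminin to collagen IV, the dimmer was below (-0.98) and the brighter overlapped (-0.10). Tenascin C (Tnc) lay below at -0.56. Activators and adaptors had a median of -0.01, with 4 of 21 above and 1 below. Vasp and Enah extend actin filaments at adhesions. Vasp was above (0.43), as were Sorbs3 (0.55) and Pip5k1c (0.50). So was the dimmest probe set of Enah (0.72), with control signals of 81.6 and 133, under the 40th percentile. That probe set was tested through the exposed embryos alone, and the other Enah probe sets overlapped at -0.32, 0.14 and 0.16. Partners of integrins in the membrane had a median of 0.20, with 5 of 13 above and 0 below. The 5 included both probe sets of the syndecan Sdc4, at 0.51 and 1.03. The latter had control signals of 76.9 and 105, under the 40th percentile, and was tested through the exposed embryos alone.

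**Figure D4:**
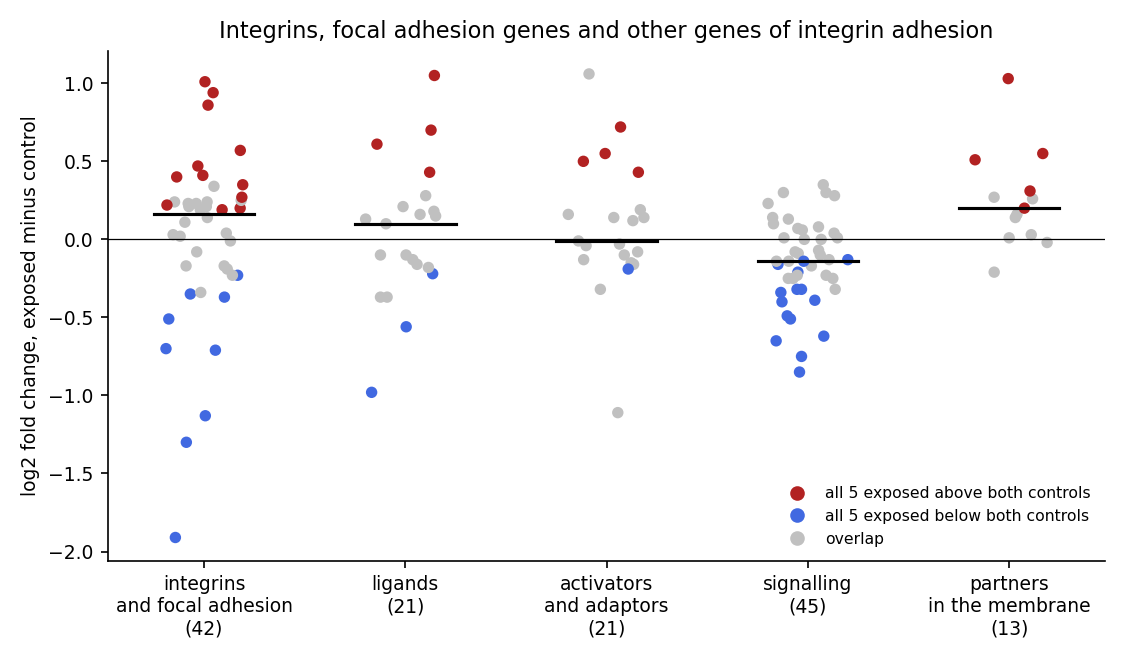
Log2 fold change, exposed minus control, of each tested probe set (y) in 5 gene groups (x, with the number of probe sets), coloured by whether all 5 exposed embryos lie above or below both controls, with the median of each group as a black line. Signalling genes have the lowest median, -0.14, and none of their probe sets has all exposed embryos above the controls.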

How the data were processed

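RNA of 7 whole embryos was labelled with biotin and hybridized to 1 array each. The authors computed the deposited values, linear signal intensities, with MAS5, and the sources used here do not give its version. The authors scaled each of the 7 arrays to a trimmed mean of 500.2, with 2% of the values cut at either end. Detection calls were not used, and no further normalization was applied. Groups came from the sample titles. Control probe sets (64) were left out. Symbols came from the array annotation, in which 20393 probe sets had 1 symbol, 691 several and 1606 none, and no probe set of the genes described had several.

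Signals below 1 were set to 1, and log2 signals were fitted with limma 3.58.1 in R 4.3.3 (lmFit, eBayes with trend), for 5 exposed against 2 control embryos and, in a fit of 3 groups, for embryos with against those without NTD. P-values were adjusted over all 14554 tested probe sets. The fit was tested on simulated data of the same sizes. The genes, the lists and the rule for naming probe sets were chosen with earlier results of these data known. The rule gave every embryo's value for called probe sets, those of Itgav, Pxn and Vcl, those with an unadjusted p under 0.05 and no overlap of exposed and control embryos, the 3 of smallest p by NTD, and those of Itgb1, Itga5, Ptk2, Tln1 and Ilk, 26 probe sets of 16 genes. Alternatives were quantile normalization, median centring, a floor of 16, an offset of 50, other filters (none, the 60th percentile, and the mean over arrays, which was chosen after seeing the data), no trend, array quality weights (statmod 1.5.0), exposed embryos without NTD only, a block for the embryo number, each embryo left out, and the methods' t-test. Promoter windows came from RefSeq. Python 3.11.15 with pandas 2.3.3, NumPy 2.4.6 and Matplotlib 3.10.9 made the tables and plots. Protein sequences were not used here.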

Additional observations from a re-analysis of the deposited data

Results flagged for a closer look

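In 8 of the 66 probe sets 1 of the 5 exposed embryos stood apart from the other 4 by a gap above the critical share of the range (0.71), where chance alone flags about 1 in 20 such groups. Exposed embryo 1 without NTD was the one in 5 of them. Its signal was 71.1 for Itgae (8.15 to 18.1 in the other 4), 25.2 for an untested Itgb1 probe set (1.18 to 7.46), 68.9 for Itgb4 (18.5 to 32.4) and 127 for Itgb7 (31.3 to 49.4), all of them untested low signals, and 888 for the tested Zyx probe set (1191 to 1314). This embryo also had the high summed signal of yolk sac endoderm and liver genes, and whether the 2 are related was not tested. Exposed embryo 3 without NTD was the one in the other 3, with 49.5 for the brighter untested Itga4 probe set (14.8 to 19.3), 243 for the dimmest Itgb5 probe set (303 to 318) and 638 for the tested Git2 probe set (757 to 791). None of the 8 was called in a comparison.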

How the results depend on the processing

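The 1 called probe set, Git1, kept its direction under every alternative run, at log2 differences of 0.82 to 1.03 and limma adjusted p-values of 0.00722 to 0.346. The count called higher was 0 without the filter, without the trend, with exposed embryos without NTD only and by the methods' t-test after adjustment, and 0 to 1 when an embryo was left out. Unadjusted at its threshold, the methods' t-test gave 5 higher and 8 lower. With array quality weights 2 were called lower (the dimmer Vcl probe set and 1 of Lims1). Probe sets with all exposed embryos below both controls numbered 4 with the 60th percentile filter, against 9. The median log2 difference was 0.04 without the filter and 0.03 to 0.17 when an embryo was left out.

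With a replicate block for the embryo number in the titles, 0 were called higher and the median was 0.10. Deviations of same-numbered embryos correlated at -0.25 to 0.03, so the numbers did not pair the embryos.

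Signs turned only for differences near 0 or with 1 control left: the dimmer Tln1 probe set (0.02) was at -0.04 with array quality weights, -0.00 with the replicate block and -0.10 to 0.14 when an embryo was left out. The brighter Tln1 probe set (0.11) was at -0.09 to 0.31 when an embryo was left out, below 0 only without control 2, and the brighter Parva probe set (0.21) at -0.22 to 0.63, below 0 only without control 1. The brightest Pxn probe set (0.03) was at -0.00 with exposed embryos without NTD only and -0.00 to 0.07 when an embryo was left out. Of 457 recomputed values of the 26 probe sets, 437 kept their direction and side of the threshold. Of the others, 9 lost the call of Git1, 2 gained a call and 9 turned sign. Only Git1 was called in the reported fit, so keeping the side of the threshold says little for the other probe sets. Between embryos with and without NTD, 0 of these genes' probe sets were called by limma under any alternative run, against 1 at an unadjusted p under 0.05 in the reported fit. The number of arrays and, for low probe sets, the signal over background limit what could be seen.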
